A study of Mus musculus with 6 samples.

Results

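The genes described here are 10 members of the Notch pathway: the receptors Notch1, Notch2 and Notch3, the ligands Jag1, Jag2 and Dll1, the DNA-binding effector Rbpj, and Hes1, Hey1 and Dtx1, which act downstream of the receptor. They were chosen by name, with 1 probe set per gene, and all 10 are among the 19938 single-named genes measured. Notch receptors are cleaved after they bind a ligand on a neighbouring cell, and the freed intracellular part enters the nucleus and joins Rbpj, which otherwise represses its targets, to switch on genes such as Hes1. In blood formation the pathway is best known for directing lymphoid progenitors to the T lineage and for its part in the emergence of stem cells in the embryo. Ligands are carried by stromal and endothelial cells of the marrow and by several blood cell types.

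The cells were mouse bone marrow cells transduced with the retroviral vector MSCV carrying MN1, a transcriptional coregulator and leukaemia oncogene, or with the empty vector MSCV-IRES-GFP. Cells that carried the reporter were sorted at 72 hours, so both groups had been infected and sorted. The labels name GFP as the reporter for both groups, whereas the design text names YFP for the MN1 vector. The labels give neither strain, age nor sex of the donors, nor the species of the MN1 cDNA. The transductions were done as independent experiments, with 3 arrays in each group, and the values are log2 levels of whole-transcript arrays.

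Mn1 itself served as a check of the labels: its levels were 6.47, 6.62 and 6.08 on the MN1 arrays and 5.34, 5.41 and 4.80 on the empty vector arrays, a log2 difference of 1.20 ± 0.21 (SE, n = 3 and 3; adjusted p 0.584, limma). By its mean over all arrays, Mn1 lay in the dimmest 40% of probe sets. The arrays also differed within each group. The mean of 3 Y-linked genes ran from 3.78 on empty vector replicate 2 to 7.57 on MN1 replicate 3, and the mean of 10 granulocyte markers from 8.82 to 12.47 among the empty vector arrays alone. Over all genes, limma with Benjamini-Hochberg adjustment called 0 genes at an adjusted p under 0.05, which is 0% of those tested. At an unadjusted p under 0.05 there were 832 genes higher and 843 lower with MN1, or 977 and 400 after each array was centred on its median. Together the 1675 genes found without centring are 8.4% of those tested.

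Across the Notch genes no difference between MN1 and empty vector passed the test, and the 10 members lay in both directions. By limma 0 of 10 members passed adjustment over all genes (adjusted p 0.594 to 0.974), and 0 of 10 had an unadjusted p under 0.05, where 8.4% of all genes did. The mean was higher with MN1 for 6 members and lower for 4, with a median log2 difference of 0.15, while 43.3% of all genes were higher and their median was -0.03. After median-centring the mean was higher for 7 members and for 50.1% of all genes. With the dimmest 40% of probe sets left out, the mean was higher for 5 of 8 members and for 6832 of 11944 genes. The median difference of those 11944 genes was 0.04. The median size of the difference, without its sign, was 0.18 for the members and 0.14 for all genes. The MN1 and empty vector arrays overlapped for all 10 members. Over all genes, MN1 lay wholly above for 5.71% and wholly below for 10.3%. With 3 arrays against 3, an exact two-sided permutation test of a single gene cannot give a p below 0.1, and the members' values ran from 0.2 to 1.

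**Figure D1:**
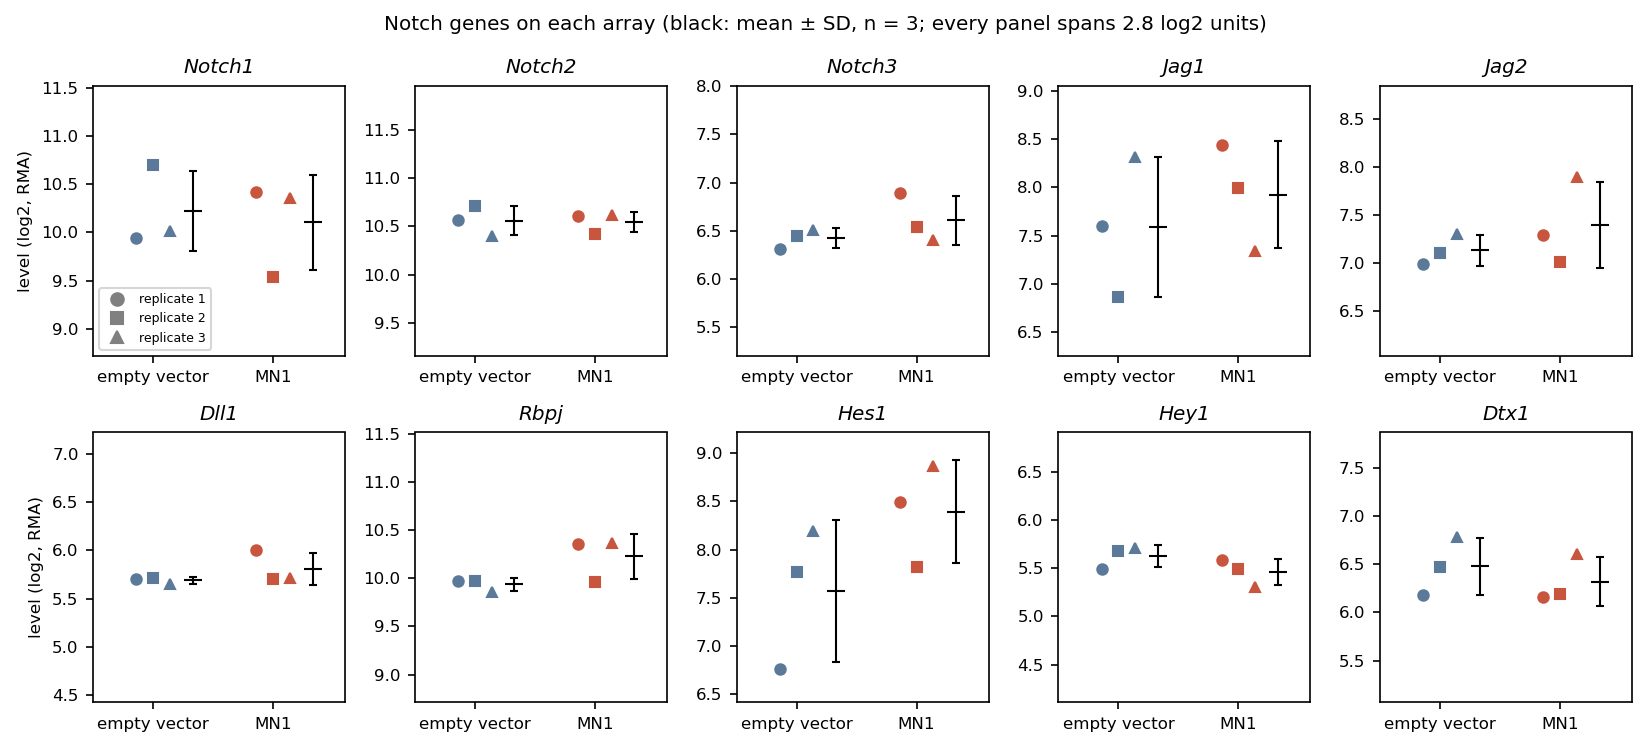
Level of each of the 10 Notch genes on each array (log2, RMA), with empty vector in blue, MN1 in red, the shape of a point giving the replicate number, and black marks for mean ± SD (n = 3). The groups overlap in every panel; Hes1 and Jag1 are spread most widely among arrays of the same group, and Dll1 and Rbpj are nearly level among the empty vector arrays.

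Of the receptors, Notch2 had the smallest difference between the groups. Its levels were 10.57, 10.71 and 10.40 with the empty vector and 10.60, 10.42 and 10.61 with MN1. The log2 difference was -0.01 ± 0.12 (SE, n = 3 and 3), with a 95% interval from -0.30 to 0.27. A difference of up to about that size in either direction lies within the error of these arrays.

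Notch1, the receptor that instructs T lineage commitment, varied more within each group than between them. It read 9.94, 10.70 and 10.02 on the empty vector arrays and 10.42, 9.54 and 10.36 on the MN1 arrays, so that the highest and the lowest of the 6 arrays were replicate 2 of either group. Its log2 difference was -0.11 ± 0.30 (SE), with an adjusted p of 0.906 (limma). That difference turned to 0.12 when empty vector replicate 2 was left out and to 0.17 when MN1 replicate 2 was, so its sign rests on single arrays. The sign of the Notch2 difference does as well, with 0.06 and 0.05 when the same arrays were left out and 0.019 after median-centring.

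Notch3, a receptor of vascular smooth muscle and pericytes that developing T cells also carry, measured 6.31, 6.44 and 6.51 with the empty vector and 6.89, 6.54 and 6.40 with MN1. MN1 replicates 1 and 2 lay above all empty vector arrays, and MN1 replicate 3 lay among them. The difference was 0.19 ± 0.15 (SE, log2; adjusted p 0.681, limma) and was 0.05 with MN1 replicate 1 left out.

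All 3 ligands had a higher mean with MN1, and no difference passed the test. Jag1, a ligand of stromal and endothelial cells, ranged over 1.45 log2 units among the empty vector arrays, at 7.60, 6.86 and 8.31. With MN1 it was 8.44, 7.99 and 7.34. The highest arrays were thus MN1 replicate 1 and empty vector replicate 3, and the lowest was empty vector replicate 2. The difference of 0.33 ± 0.42 (SE, log2; adjusted p 0.792, limma) became -0.032 without empty vector replicate 2. That array also had the lowest mean of 6 megakaryocyte markers, 8.50 against 9.47 to 11.28 on the other arrays, and the lowest mean of 10 monocyte and macrophage markers, 9.66 against 10.16 to 11.21. It was the lowest array as well for the means of B lineage (5.68), stem and progenitor (8.20), endothelial and stromal (6.43) and Y-linked genes, and the highest for granulocyte markers (12.47). By gene, 6 of 6 megakaryocyte and 8 of 10 monocyte and macrophage markers had a higher mean with MN1. Whether any of these bear on the Jag1 level was not tested. In sorted bulk samples, fewer cells of a type and less RNA per cell cannot be told apart.

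Jag2 read 6.99, 7.10 and 7.31 with the empty vector and 7.30, 7.01 and 7.89 with MN1. Only MN1 replicate 3 stood above the range of the controls, and without it the difference of 0.27 ± 0.23 (SE, log2) was 0.02. Dll1, a Delta ligand that drives T cell development in culture, was 5.70, 5.72 and 5.65 with the empty vector and 5.9998, 5.71 and 5.71 with MN1. Its difference was 0.12 ± 0.11 (SE, log2), and it was 0.02 without MN1 replicate 1, the array that stood apart. Dll1 lay in the dimmest 40% of probe sets, where RMA draws values together. After median-centring or quantile normalization its 3 MN1 arrays lay above the controls, with a difference of 0.15 under either and an adjusted p of 0.783 and 0.772 (limma).

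Rbpj, the factor through which all Notch receptors act on DNA, had the smallest unadjusted p of the members, 0.0742. It was level on the controls, at 9.97, 9.97 and 9.86, and read 10.35, 9.96 and 10.36 with MN1. Thus MN1 replicates 1 and 3 lay above every control, and MN1 replicate 2 lay among them. The means were 9.93 ± 0.06 (SD, n = 3) and 10.22 ± 0.23 (SD, n = 3), a log2 difference of 0.29 ± 0.14 (SE) or 1.22-fold, with an interval from -0.04 to 0.62 and an adjusted p of 0.594 (limma). After median-centring the groups no longer overlapped, with a difference of 0.32 and an adjusted p of 0.737. Without MN1 replicate 2 the difference was 0.42, with an unadjusted p of 0.00926 and an adjusted p of 0.509. A second, dim Rbpj probe set gave 4.60, 4.71 and 4.77 on the controls and 4.63, 4.53 and 4.81 with MN1, a difference of -0.03, so the mean of both sets differed by 0.13.

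**Figure D2:**
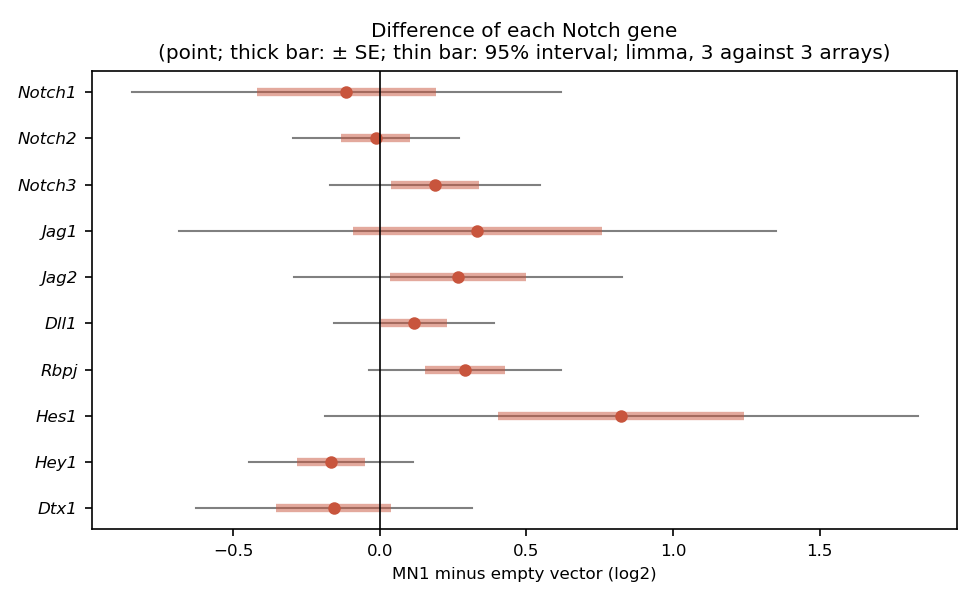
Log2 difference (MN1 minus empty vector) of each Notch gene, with the SE as a thick bar and the 95% interval as a thin bar (limma, 3 arrays against 3). Every interval crosses 0; Hes1 has the largest difference, 0.82, and Rbpj the interval that reaches least below 0 among the members with a higher mean, -0.04.

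Rbpj binds DNA at a short core, TGGGAA, and the stretch upstream of pathway genes was searched for it on both strands, to show where its letters lie; a match is not evidence of binding. Of the members, 8 have a start in the RefSeq promoter table (GRCm38.p6); Hes1 and Hey1 are not listed there. Only Rbpj held a match within 250 bases before a start. The 2 listed Rbpj starts overlap and share a match, and the upstream start, printed here, has 2. Over all 32851 starts in the table, 21.6% held the core, and over the 79 starts of the members and the other pathway genes 25.3% did (20 of 79). The longer form GTGGGAA, which is counted within the core, was in 5.42% of all starts, 10.1% of these and 0 of the 10 starts of members. Shown with Rbpj are Hes5, a target of the same family as Hes1, and Ptcra, a target in T cell precursors, which have 2 matches each. Capitals mark the core or its reverse complement TTCCCA. The stretches are Rbpj chr5:53590096-53590345 on the plus strand, Hes5 chr4:154960673-154960922 on the plus strand and Ptcra chr17:46763713-46763962 on the minus strand.
Rbpj: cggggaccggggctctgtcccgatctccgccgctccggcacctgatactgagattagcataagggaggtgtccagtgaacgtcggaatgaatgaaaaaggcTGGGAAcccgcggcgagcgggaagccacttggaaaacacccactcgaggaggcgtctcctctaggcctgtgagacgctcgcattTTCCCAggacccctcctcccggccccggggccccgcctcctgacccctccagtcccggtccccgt
Hes5: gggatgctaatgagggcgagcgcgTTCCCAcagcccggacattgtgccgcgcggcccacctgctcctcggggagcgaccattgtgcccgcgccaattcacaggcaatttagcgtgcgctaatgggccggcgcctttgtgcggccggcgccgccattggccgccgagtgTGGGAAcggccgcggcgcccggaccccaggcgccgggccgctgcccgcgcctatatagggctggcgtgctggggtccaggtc
Ptcra: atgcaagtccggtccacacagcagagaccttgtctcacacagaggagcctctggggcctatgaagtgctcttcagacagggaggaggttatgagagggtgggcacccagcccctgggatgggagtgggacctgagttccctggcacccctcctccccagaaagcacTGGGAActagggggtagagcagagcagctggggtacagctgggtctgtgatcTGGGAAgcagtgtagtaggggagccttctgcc
The matches begin 149 and 65 bases before the start in Rbpj, 226 and 82 in Hes5, and 84 and 32 in Ptcra. On the arrays Hes5 read 7.73, 8.003 and 8.21 with the empty vector and 7.83, 7.88 and 7.78 with MN1, a log2 difference of -0.15 ± 0.14 (SE). Of the 54 measured members and pathway genes with a listed start, 16 held the core, and the mean was higher with MN1 for 8 of them and lower for 8. Among the 38 without it, the mean was higher for 18 and lower for 20.

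Among the genes downstream of the receptor, Hes1 had the largest difference of any member. Hes1 encodes a basic helix-loop-helix repressor that is among the most direct readouts of Notch signalling, though other pathways also drive it. It read 6.76, 7.77 and 8.19 on the empty vector arrays and 8.49, 7.82 and 8.87 on the MN1 arrays. Empty vector replicate 1 was lowest and MN1 replicates 3 and 1 were highest, and MN1 replicate 2 lay between empty vector replicates 2 and 3. The means were 7.57 ± 0.73 (SD, n = 3) and 8.39 ± 0.53 (SD, n = 3), a log2 difference of 0.82 ± 0.42 (SE) or 1.77-fold. The 95% interval ran from -0.19 to 1.83, the unadjusted p was 0.0947 and the adjusted p 0.595 (limma).

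The Hes1 difference was 0.42 with empty vector replicate 1 left out and 0.59 with MN1 replicate 3 left out. With empty vector replicate 3 left out it was 1.13 (unadjusted p 0.0396, adjusted p 0.508, limma), and with MN1 replicate 2 left out 1.11 (unadjusted p 0.0468, adjusted p 0.509, limma). Some marker means split the arrays as Hes1 did. The arrays with the highest Hes1, MN1 replicates 3 and 1 and empty vector replicate 3, were also the 3 with the highest mean of 9 B lineage markers (7.15, 6.75 and 7.54 against 5.68 to 6.07) and the 3 with the lowest mean of granulocyte markers (9.44, 9.34 and 8.82 against 10.54 to 12.47). They also had the lowest mean of 8 mast cell, basophil and eosinophil markers, at 9.01, 9.02 and 9.01 against 10.26 to 10.72, and the highest Y-linked mean, at 7.57, 7.11 and 7.04 against 3.78 to 6.12. The order of the remaining arrays was not that of Hes1, which was lowest on empty vector replicate 1. Empty vector replicate 2 had the lowest B lineage and Y-linked means and the highest granulocyte and mast cell, basophil and eosinophil means. By gene, 5 of 9 B lineage markers had a higher mean with MN1, and 10 of 10 granulocyte markers and 7 of 8 mast cell, basophil and eosinophil markers a lower mean. The part of any of these in the Hes1 result was not tested.

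**Figure D3:**
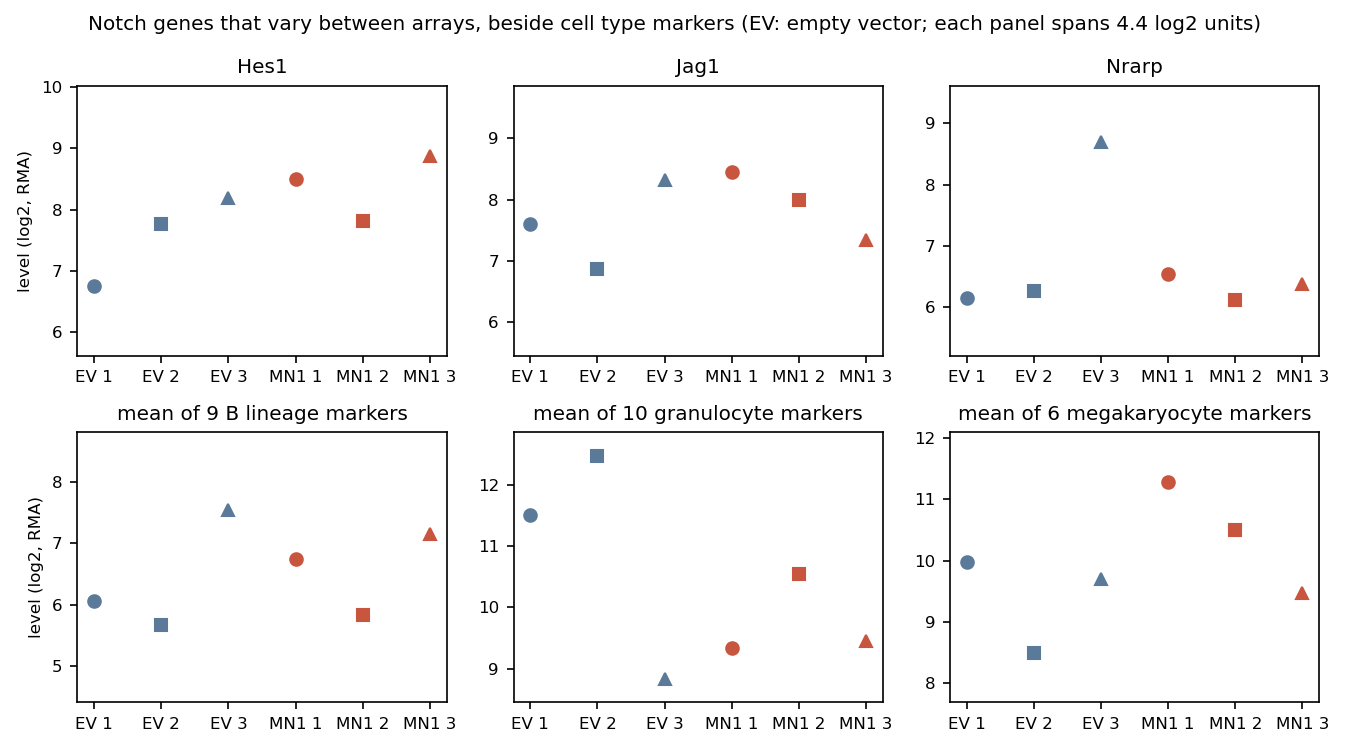
Levels of Hes1, Jag1 and Nrarp (upper row) and the mean levels of B lineage, granulocyte and megakaryocyte markers (lower row) on each of the 6 arrays (log2, RMA), with empty vector (EV) in blue and MN1 in red. The highest Hes1 levels and the highest B lineage means fall on the same 3 arrays, and Nrarp stands at 8.70 on empty vector replicate 3 alone.

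Hey1 and Dtx1 both had a lower mean with MN1. Hey1, a repressor of the Hes-related family known from arterial endothelium, read 5.49, 5.68 and 5.71 with the empty vector and 5.58, 5.49 and 5.31 with MN1, with a log2 difference of -0.17 ± 0.12 (SE; adjusted p 0.657, limma). It lay in the dimmest 40% of probe sets. Dtx1, an E3 ubiquitin ligase that binds Notch and is itself a target in lymphocytes, read 6.18, 6.47 and 6.78 with the empty vector and 6.16, 6.19 and 6.61 with MN1, a difference of -0.16 ± 0.20 (SE, log2; adjusted p 0.787, limma). Its replicate 3 was the highest array in either group, and without empty vector replicate 3 the difference was -0.0075.

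**Figure D4:**
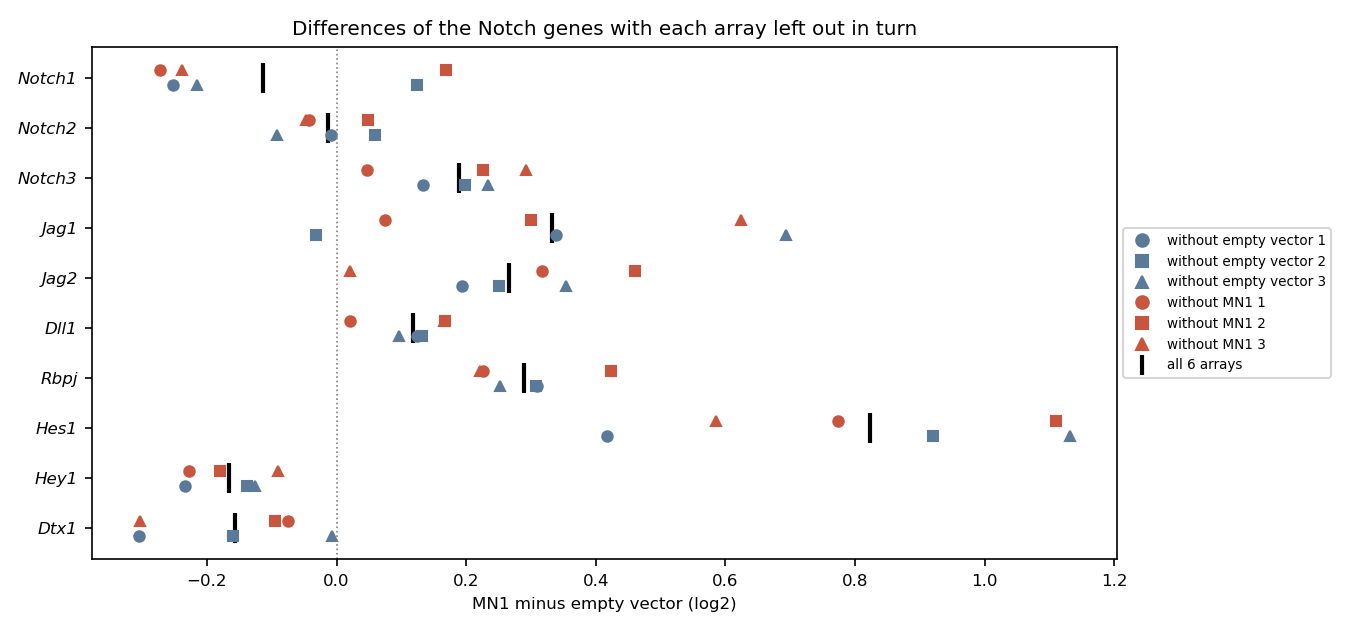
Log2 difference of each Notch gene with all 6 arrays (black bar) and with each array left out in turn (blue: an empty vector array left out; red: an MN1 array left out). Values for Notch1, Notch2 and Jag1 fall on both sides of 0, while Hes1 runs from 0.42 to 1.13 and Rbpj from 0.22 to 0.42.

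Of 64 further pathway genes, 59 were measured alone on a probe set, and none passed adjustment over all genes (0 of 59 by limma; smallest adjusted p 0.584). At an unadjusted p under 0.05 there were 3 with a higher and 2 with a lower mean, against 8.4% of all genes. The mean was higher with MN1 for 28 and lower for 31, and the median log2 difference was -0.04. That median has no settled sign: it was 0.05 with the dim probe sets left out (27 of 51 higher), 0.04 with empty vector replicate 1 left out and 0.03 with MN1 replicate 2 left out. All genes moved likewise without the dim probe sets: 6832 of 11944 were higher, with a median of 0.04. The arrays did not overlap for 11: MN1 lay above for 4 and below for 7, where 5.71% and 10.3% of all genes did so. Of the 7 below, 5 lay in the dimmest 40% of probe sets, and 0 of the 4 above; over all genes, 66.0% of those below and 12.5% of those above did. With the dim probe sets left out, 4 of 51 pathway genes lay above and 2 below, beside 8.35% and 5.84% of all genes left. Leaving out an array makes such separation easier for every gene. With MN1 replicate 1, 2 or 3 left out, 21, 19 and 15 of the 59 did not overlap, beside 25.5%, 31.1% and 24.7% of all genes. With empty vector replicate 1, 2 or 3 left out, 16, 16 and 18 did not, beside 27.1%, 21.5% and 31.5% of all genes.

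**Figure D5:**
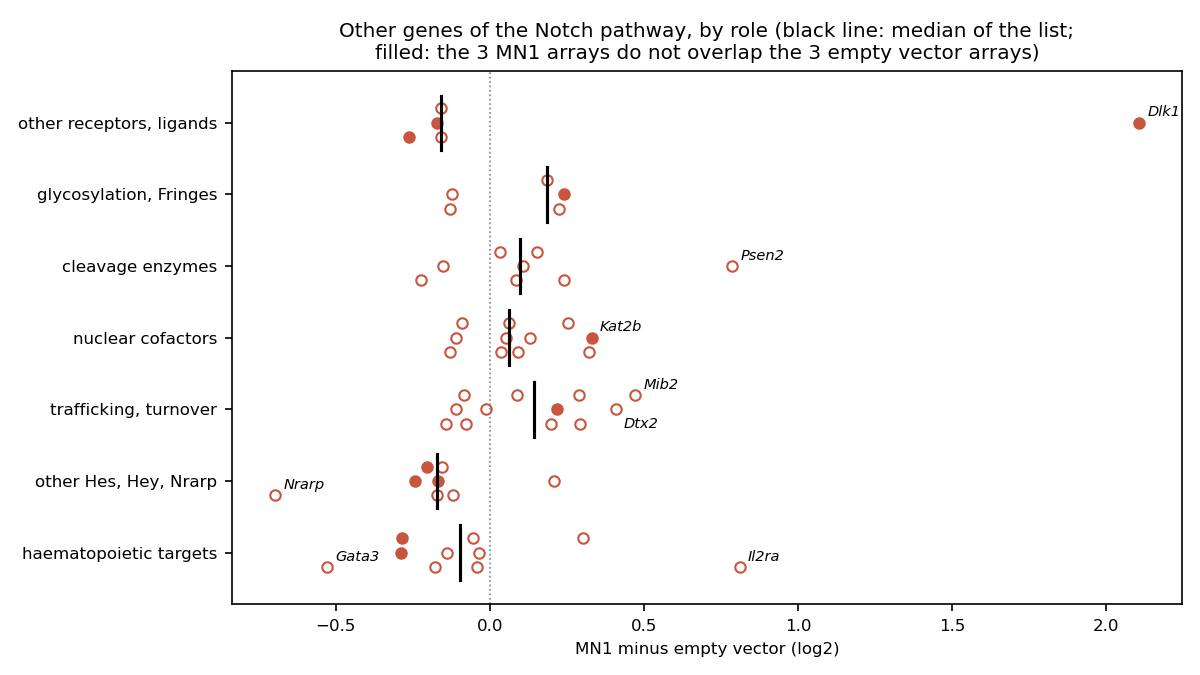
Log2 difference (MN1 minus empty vector) of 59 other Notch pathway genes by role, with 1 point per gene, the median of each list as a black line, and filled points where the 3 MN1 arrays do not overlap the 3 empty vector arrays. Most points lie within 0.5 of 0; Dlk1 stands at 2.10, and Psen2, Il2ra, Nrarp and Gata3 are the other genes beyond 0.5.

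The atypical ligand Dlk1 had the largest difference of the 59 genes. Dlk1 resembles the Delta ligands but lacks the domain that engages the receptor, and it is usually described as an inhibitor of Notch or as a progenitor gene. It read 7.88, 7.48 and 7.20 with the empty vector and 9.57, 10.74 and 8.57 with MN1. Every MN1 array lay above every control, with a log2 difference of 2.10 ± 0.52 (SE) and an adjusted p of 0.584 (limma). The mean of 8 stem and progenitor markers also lay wholly above with MN1, at 8.94, 9.64 and 9.31 against 8.71, 8.20 and 8.52. Like Dlk1 it was highest on MN1 replicate 2, but MN1 replicates 1 and 3 were in the opposite order. By gene, 6 of 8 had a higher mean with MN1 and 2 a lower. For 4 of the 8, MN1 lay wholly above, beside 5.71% of all genes. The part of these markers in the Dlk1 result was not tested. The other 4 receptors and ligands of the list had lower means. The relative Dlk2 differed by -0.26 ± 0.10 (SE), at 7.10, 7.07 and 7.13 against 6.85, 6.93 and 6.72. Dll3, a ligand that does not activate the receptor from a neighbouring cell, differed by -0.17 ± 0.10. It read 5.55, 5.58 and 5.503 against 5.35, 5.501 and 5.27. Neither overlapped between groups, and Dll3 lay in the dimmest 40% of probe sets.

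None of the genes that modify or cleave the receptor passed the test, and Psen2 had the largest difference among them. Over all genes, 43.3% had a higher mean with MN1, or 6832 of 11944 without the dim probe sets, and MN1 lay wholly above for 5.71%. Of 5 genes of Notch glycosylation, MN1 had the higher mean for 3, and the arrays of 1 did not overlap. This was Mfng, a Fringe that tunes which ligand a receptor answers, at 9.30, 8.94 and 9.21 against 9.34, 9.42 and 9.40, a log2 difference of 0.24 ± 0.12 (SE). The O-glucosyltransferase gene Poglut1 and the O-fucosyltransferase gene Pofut1 differed by 0.23 ± 0.18 and 0.18 ± 0.19. Of 8 measured genes of the cleaving proteases, 6 had a higher mean with MN1, and the groups of all 8 overlapped. Psen2, a catalytic subunit of gamma-secretase, read 8.61, 8.93 and 9.63 with the empty vector and 9.41, 9.79 and 10.32 with MN1. The replicate 3 array was the highest of both groups, and empty vector replicate 3 lay above MN1 replicate 1. Its log2 difference was 0.79 ± 0.33 (SE; unadjusted p 0.0495, adjusted p 0.584, limma). Adam17, which can shed the ectodomain, differed by 0.24 ± 0.14, and Furin, which cuts the receptor during maturation, by -0.22 ± 0.12.

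In the nucleus, 8 of 11 measured cofactors had a higher mean with MN1 (list median 0.06, log2), but 6 of 11 after quantile normalization. Of all genes, 43.3% had a higher mean, or 40.4% after quantile normalization, and 6832 of 11944 without the dim probe sets. MN1 lay wholly above for 1 of the 11 cofactors, beside 5.71% of all genes. Kat2b, an acetyltransferase of the activator complex, was the cofactor whose groups did not overlap: 6.87, 6.92 and 6.91 with the empty vector and 7.15, 7.20 and 7.34 with MN1. The difference was 0.33 ± 0.09 (SE, log2), with an unadjusted p of 0.0109 and an adjusted p of 0.584 (limma). Kdm5a, a histone demethylase that acts with Rbpj in repression, differed by 0.32 ± 0.24 and the coactivator gene Maml2 by 0.25 ± 0.33, both with overlapping groups. A second Maml2 probe set gave 0.64.

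Genes of ligand and receptor trafficking and turnover had 7 of 12 means higher and 5 lower (8 and 4 after median-centring), with a median of 0.14. That median was 0.06 after quantile normalization and also with empty vector replicate 3 left out, and 0.08 when either MN1 replicate 1 or MN1 replicate 3 was left out. Of all genes, 43.3% had a higher mean, or 50.1% after median-centring, and 6832 of 11944 without the dim probe sets. Itch, a ubiquitin ligase that targets Notch, was the member without overlap, at 9.26, 9.40 and 9.16 against 9.43, 9.46 and 9.59, a log2 difference of 0.22 ± 0.11 (SE). MN1 thus lay wholly above for 1 of the 12, beside 5.71% of all genes. Mib2, a ubiquitin ligase for Notch ligands, differed by 0.47 ± 0.22, with 8.24 and 8.48 on MN1 replicates 1 and 3 and 7.62 on MN1 replicate 2 against 7.61 to 7.70 on the controls. This repeats the arrangement of Rbpj, where MN1 replicate 2 also lay with the controls. Dtx2 and Dtx3l, relatives of Dtx1, differed by 0.41 ± 0.31 and 0.29 ± 0.22.

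The remaining Hes, Hey and feedback genes had lower means with MN1 in 7 of 8 cases, unlike Hes1, with a median of -0.17. They did so in 7 of 8 after median-centring and after quantile normalization. Of all genes 43.3% had a higher mean, or 50.1% and 40.4% after these scalings. Differences were small for the Hes-related repressors Heyl (-0.24 ± 0.11, SE, log2), Hey2 (-0.20 ± 0.09) and Hes3 (-0.17 ± 0.10). Their groups did not overlap, so MN1 lay wholly below for 3 of the 8, beside 10.3% of all genes. Hey2 and Hes3 lay in the dimmest 40% of probe sets. Hes6, which opposes Hes1, was the exception at 0.21 ± 0.23. Nrarp, a feedback inhibitor that Notch induces, read 6.16, 6.27 and 8.70 with the empty vector and 6.55, 6.11 and 6.37 with MN1. Empty vector replicate 3 stood alone, since the other 5 arrays lay between 6.11 and 6.55, and the difference was -0.70 ± 0.67 (SE). On the same array the T lineage factor gene Gata3 stood at 8.13 against 6.22 to 6.72 on the others, and the means of 9 B lineage and of 9 T cell markers were the highest of the 6, at 7.54 and 6.25 against 5.68 to 7.15 and 5.55 to 5.99. Hes1 was not highest there: its 8.19 lay below MN1 replicates 1 and 3. Whether Gata3 or these marker means bear on the Nrarp level was not tested.

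Among 10 measured target genes of blood cells, 2 had a higher mean with MN1 and 8 a lower (list median -0.10, log2). The mean was higher for 43.3% of all genes. With MN1 replicate 1 left out, 4 had a higher mean. The median was -0.04 without the dim probe sets and with empty vector replicate 3 left out, and -0.05 with empty vector replicate 1 left out. Il2ra, the interleukin 2 receptor alpha chain, read 8.95, 7.18 and 9.24 with the empty vector and 8.66, 9.42 and 9.72 with MN1, and differed by 0.81 ± 0.57 (SE, log2), with empty vector replicate 2 standing low. Gata3 differed by -0.53 ± 0.45 and the cyclin gene Ccnd1 by 0.30 ± 0.21. Ptcra, the pre-T cell receptor alpha chain, read 5.99, 5.80 and 5.65 against 5.51, 5.61 and 5.47, a difference of -0.28 ± 0.12 with an unadjusted p of 0.0492 and an adjusted p of 0.584 (limma). Fcer2a, the low-affinity IgE receptor of B cells, differed by -0.29 ± 0.14; both lay in the dimmest 40% of probe sets and did not overlap between groups.

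T lineage cells are the classical site of Notch1 action. Of 9 measured T cell markers 8 had lower means with MN1 and 1 a higher mean, where 43.3% of all genes had a higher mean. Their mean level was 5.96 to 6.25 on the controls and 5.55 to 5.83 with MN1. Most were dim: Cd3d, Cd3e, Cd3g, Cd4, Zap70 and Cd5 lay in the dimmest 40% of probe sets. With the dim probe sets left out, 6832 of 11944 genes had a higher mean, so higher means were rarer among dim genes. Thy1 was far brighter than the other T cell markers, with a mean of 10.41 on the controls and 9.31 with MN1. Its log2 difference was -1.10 ± 0.59 (SE), and its groups overlapped. Of 10 endothelial and stromal markers, 4 had a higher mean with MN1 and 6 a lower. The list's mean was 6.43 to 6.45 on the controls and 6.53 to 6.65 with MN1, while the median difference was -0.08 (log2). Its genes lay in both directions: the endothelial receptor genes Kdr and Tek differed by 1.74 and 1.01 with MN1 wholly above, and the stromal genes Acta2, Col1a1 and Col1a2 by -0.46, -0.34 and -0.18 with MN1 wholly below. Thus MN1 lay wholly above for 2 of the 10 and wholly below for 3, beside 5.71% and 10.3% of all genes. None of the 10 passed adjustment (smallest adjusted p 0.584, limma). The other endothelial markers, Cdh5, Emcn and Pecam1, overlapped between the groups. So did the other stromal genes, Pdgfrb and Cxcl12, which differed by -0.08 and -0.07. Cdh5, Emcn and Cxcl12 lay in the dimmest 40% of probe sets. The part of either list in the values of the Notch genes was not tested.

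By the shape of their profile over the 6 arrays, the genes closest to Hes1 were Slc16a7, Spata6 and Acot13. Their levels, each centred on its own mean, lay on average 0.10, 0.19 and 0.19 log2 units from those of Hes1. Slc16a7, a monocarboxylate transporter gene, ran 4.72, 5.80 and 6.03 with the empty vector and 6.21, 5.59 and 6.61 with MN1, the same low empty vector replicate 1 and high MN1 replicate 3. For Notch2, taken for its high mean signal, the closest genes were Cdkl4, Gm5089 and Olfr1471, at 0.02 log2 units each. Their differences between the groups were -0.0081, -0.046 and 0.0062. All 3 lay in the dimmest 40% of probe sets, at 3.07 to 4.84 over the arrays, whereas Notch2 read 10.40 to 10.71. Such closeness compares nearly flat profiles.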

How the data were processed

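Biotin-labelled target made from 200 ng of RNA per sample was measured on single-colour Affymetrix whole-transcript arrays, per the labels' protocols. The values the authors deposited are log2 levels per probe set (2.29 to 14.80, from which the scale was inferred). The submitters' processing notes name RMA; for its software and version, nothing is given in the sources used here. RMA compresses dim values and thus the changes of dim genes, and the table has no detection calls. The number of arrays limits the precision.

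Of 35557 probe sets, 21789 carry 1 gene symbol in the 2016 platform annotation, and 21698 of these have a gene ID found in the mouse gene table. The probe set with the highest mean was kept for each gene, leaving 19938; Rbpj is the member with several. The test was limma 3.58.1 in R 4.3.3 (lmFit, eBayes, two-sided, Benjamini-Hochberg over all genes, threshold 0.05, no block), checked on simulated data. Named besides the members are, per pathway list, the 3 genes with the largest difference and those whose groups did not overlap; the 3 nearest profiles of the member with the largest difference and of the one with the highest level; and Mn1. Hes5 and the T cell, endothelial and stromal markers were named after their values were seen. The members and lists were chosen with earlier results of these data known. Of the 64 listed pathway genes, 5 were not analysed here. Promoter sequences are RefSeq's (GRCm38.p6).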

Additional observations from a re-analysis of the deposited data

How the results depend on the processing

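No Notch gene passed adjustment over all genes under any of the 13 alternatives run, and the number of genes called overall was 0 in each. Notch3, Jag2, Dll1, Rbpj, Hes1, Hey1 and Dtx1 kept the sign of their difference wherever they were measured; Dll1 and Hey1 have no value with the dimmest 40% of probe sets left out. The Notch2 difference was 0.019 after median-centring. With each array left out in turn, Notch1 ran from -0.27 to 0.17, Notch2 from -0.092 to 0.06 and Jag1 from -0.032 to 0.69. The number of Notch genes whose groups did not overlap was 2 after median-centring (Rbpj and Dll1), 1 after quantile normalization (Dll1), and 1 to 2 with an array left out; of all genes, 12.8%, 12.9% and 21.5% to 31.5% did not overlap under these settings. The number of Notch genes at an unadjusted p under 0.05 was 0 to 2 with an array left out; the 2 were Rbpj and Hes1 without MN1 replicate 2. Over all genes, 850 had an unadjusted p under 0.05 without the dim probe sets, where fewer genes were tested, and 906 to 1953 with an array left out, against 1675. With the replicate number as a block (replicate block) that count was 1980, and 0 genes and 0 Notch genes were called. Whether the numbers mark pairs of arrays was not settled, and the main fit ignores them. Deviations from the group means correlated at 0.13, 0.07 and 0.32 for numbers 1, 2 and 3. Of the 3 MN1 arrays, 2 correlated best with their own number. The Y-linked mean ranked the numbers alike in both groups. It was 5.78, 3.78 and 7.04 with the empty vector and 7.11, 6.12 and 7.57 with MN1. Signal limits 2 members, Dll1 and Hey1, and 8 of the 59 other pathway genes, which lie in the dimmest 40% of probe sets.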
